A study of Mus musculus with 6 samples.

Results

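The genes described here are 10 of chemoattractant receptor signalling and its shut-off. They include the regulators of G-protein signalling Rgs1, Rgs2, Rgs3, Rgs14, Rgs18 and Rgs19. The others are the receptor kinase gene Grk6, the arrestin genes Arrb1 and Arrb2, and Gnai2. Gnai2 encodes the G-protein subunit that these receptors use in leukocytes. The 10 genes were chosen by name, with earlier results of these data known and without a threshold on any measured value. All 10 were among the 29097 genes listed. All 10 were also among the 10440 genes tested, those with a mean FPKM (fragments mapped to a gene, scaled to its length and to the library total) of at least 1 over the 6 libraries. The libraries were Smart-seq2 libraries of CD45+CD11b+Ly6G+ neutrophils sorted from the peripheral blood (PB) of male wild-type C57BL/6 mice, 8 weeks old. In mice with ligature-induced periodontitis (LIP, labelled Lig), silk ligatures were tied around the second molars of both jaws for 14 d, and control mice (Ctrl) stayed unligated for the same 14 d. Each group had 3 libraries, and each library pooled the neutrophils of 5 mice, so the spread given below is between pools and the spread between single mice was not measured. These libraries measured transcript levels only, and not the responsiveness of any receptor. In a separate in vitro chemotaxis assay, the paper reports more migration of neutrophils from LIP mice than from Ctrl mice.

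Chemoattractant receptors on neutrophils couple to heterotrimeric G proteins of the Gi class, and signalling starts when the alpha subunit exchanges GDP for GTP and releases the beta-gamma pair. RGS proteins end this step by speeding up GTP hydrolysis on the alpha subunit. G-protein-coupled receptor kinases phosphorylate the active receptor, and beta-arrestins then bind the phosphorylated receptor, uncouple it from the G protein and guide it to clathrin-coated pits.

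Total counts per library lay between 52186555 and 57262379. All 21 mature neutrophil marker genes were higher in the LIP group (median log2 fold change 1.84), with S100a9 the most abundant at 7101 ± 738 FPKM in Ctrl and 23492 ± 753 in LIP (SD, n = 3). Erythroid genes took 14.7% to 15.1% of the counts in Ctrl libraries and 1.56% to 1.62% in LIP libraries, led by Hba-a1. All 14 B cell genes, led by Ighm, and all 14 T cell genes, led by Trbc2, were lower in LIP, with median log2 fold changes of -2.56 and -2.48. All 12 platelet genes, led by Ppbp, and 9 of 10 monocyte genes, led by Ly6c2 (by the mean over all 6 libraries, as for each list here), were higher, with medians of 1.24 and 0.91. Of 8 natural killer cell genes, led by Nkg7, 4 were higher (median 0.34), and of the 4 eosinophil and basophil genes tested 1 was, Siglecf. The TMM scaling factors were 1.10 to 1.14 in Ctrl and 0.887 to 0.902 in LIP libraries, and the cause of this difference was not tested. Fold changes (LIP over Ctrl) on the TMM scale are thus shifted upward from the ratios of FPKM, a value scaled between libraries by their totals alone. Rises are larger on the TMM scale and falls are smaller.

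Of the 10 genes, 7 were higher in the LIP group and 1, Grk6, was lower at an adjusted p under 0.05 (edgeR), where 26.5% of all genes tested were called higher and 27.2% lower. The 7 were Rgs2, Rgs3, Rgs14, Rgs18, Rgs19, Arrb2 and Gnai2, while Rgs1 and Arrb1 did not pass. The median log2 fold change of the 10 was 0.74, beside -0.09 over all genes tested. For 8 of the 10 genes, Grk6 and Arrb1 being the exceptions, the TMM-scaled counts (counts scaled to the library total, CPM) of the groups did not overlap, as for 63.4% of all genes tested. In bulk libraries such as these, fewer cells of a type and less RNA per cell cannot be told apart.

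The direction depended on the genes used for scaling. When libraries were scaled on the summed counts of the 21 mature neutrophil genes in place of TMM, the median of all genes tested moved to -1.93, the log2 fold changes of all 10 genes were negative, and 9 of them, all but Rgs3, were called lower. With that scaling 88.6% of all genes tested were called lower and 0.498% higher, so the share of the 10 genes was near the background. A change of scaling shifts all genes by nearly the same amount, so values relative to the median of all genes could hardly move. The median of the 10 genes lay 0.83 above it with either scaling. Rgs3 lay 1.81 above it with TMM and 1.80 with neutrophil-gene scaling, and Gnai2 lay 1.11 above it with both. These distances are therefore no test of the scaling. The fold changes below are on the TMM scale. Thus the 7 genes were higher relative to the median of all genes. Relative to the summed counts of the neutrophil marker genes, 6 of them were lower, with Rgs3 at -0.13 (edgeR, adjusted p = 0.453). That sum does not stand for each marker: with that scaling 5 of the 21 markers were called higher and 5 lower. With TMM, Camp, Ngp and Ltf rose by 0.39, 0.81 and 0.91, less than Gnai2 (1.01), beside a median of 1.84 for the 21 markers.

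**Figure D1:**
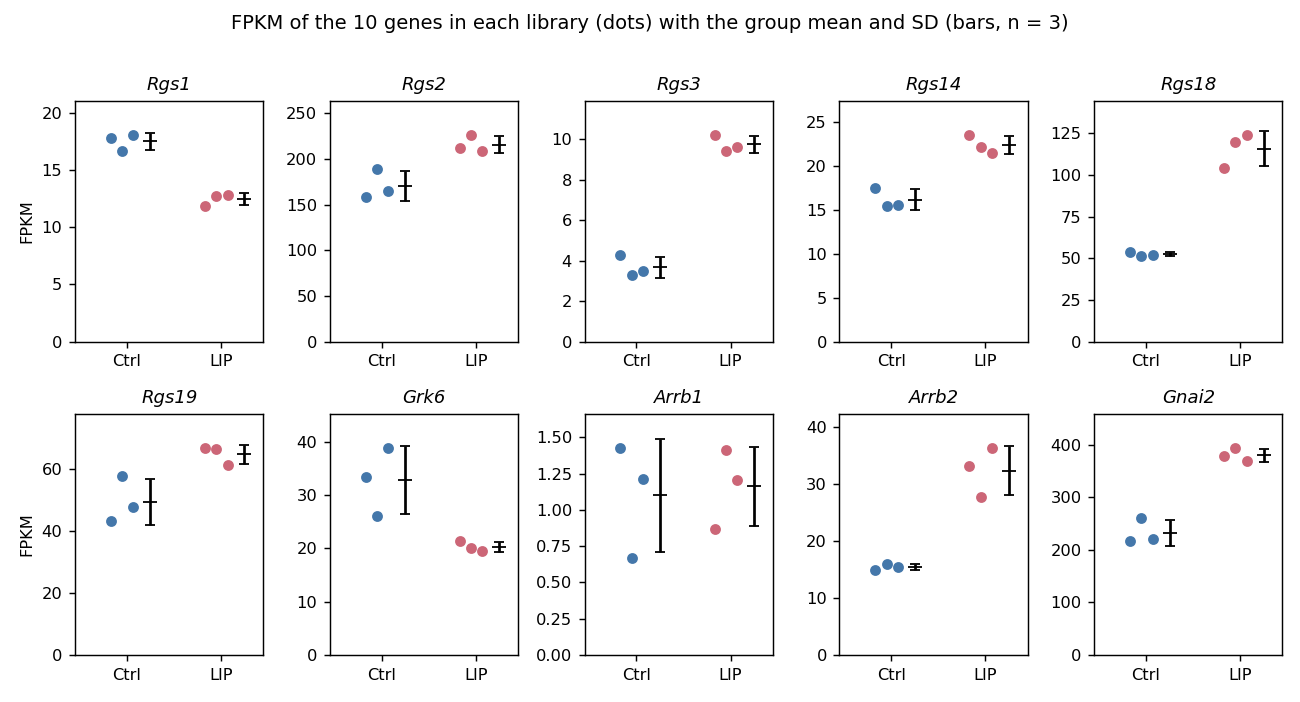
FPKM (y axis, starting at 0, one scale per gene) of the 10 genes in the 3 Ctrl libraries (blue) and the 3 LIP libraries (red), with the mean and SD of each group (black). Dots of the groups overlap for Arrb1 alone, Rgs1 and Grk6 lie lower in LIP, and the other 7 genes lie higher. The share of all genes without overlap was counted in CPM only. It was 63.4% there, beside 8 of the 10 genes.

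The genes spanned a wide range of levels. In Ctrl libraries Gnai2 was the most abundant at 233 ± 24.9 FPKM (SD, n = 3), followed by Rgs2, Rgs18, Rgs19, Grk6, Rgs1, Rgs14, Arrb2, Rgs3 and last Arrb1 at 1.10 ± 0.390. The neighbours Rgs18 and Rgs19 overlapped in that order, as did Rgs1, Rgs14 and Arrb2. In LIP libraries the order was Gnai2, Rgs2, Rgs18, Rgs19, Arrb2, Rgs14, Grk6, Rgs1, Rgs3 and Arrb1, and no neighbours overlapped. Among the 10440 genes tested, Gnai2 ranked 198 in Ctrl and 142 in LIP by mean FPKM, Arrb2 moved from rank 2594 to 1197, and Rgs3 moved from 6725 to 3099.

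Rgs2, whose protein is best known for acting on Gq and also acts on other alpha subunits, was the most abundant of the Rgs genes. It lies on chr1:143999338-144004161 (minus strand, GRCm38, as for all coordinates here). Its FPKM was 158, 189 and 165 in the Ctrl libraries and 212, 226 and 209 in the LIP libraries. Every LIP library was above every Ctrl library, and Ctrl 2 was the highest of its group. On the TMM scale Rgs2 rose by 0.64 (SE 0.0978, adjusted p = 0.000313), a 1.56-fold difference.

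Rgs3, at chr4:62559847-62703018 (plus strand), encodes several isoforms that act on Gi and Gq subunits, and GENCODE lists 17 transcripts for it, 8 of them protein coding. It had the largest log2 fold change of the 10 genes. Its FPKM was 4.25, 3.29 and 3.49 in Ctrl and 10.2, 9.39 and 9.62 in LIP libraries. The groups were far apart beside their spread, and the level stayed low: Rgs3 rose 3.28-fold on the TMM scale (log2 fold change 1.71, SE 0.131, adjusted p = 2.5e-06). The counts are per gene and do not say which isoform they came from.

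Rgs18, at chr1:144752683-144775435 (minus strand), encodes a regulator found mainly in blood cells and best known from platelets and megakaryocytes. Its FPKM was 54.0, 51.4 and 52.0 in Ctrl and 104, 119 and 124 in LIP libraries. The Ctrl libraries were nearly equal and the lowest LIP library was well above them. It rose 2.73-fold (log2 fold change 1.45, SE 0.107, adjusted p = 2.0e-06). The 12 platelet marker genes rose with it: their summed FPKM was 902 to 1135 in Ctrl and 1863 to 2203 in LIP libraries, none was at 0, and Ppbp, which encodes a platelet chemokine, went from 434 ± 69.7 to 826 ± 73.2 FPKM (log2 fold change 1.23, adjusted p = 2.18e-05). Their part in the rise of Rgs18 was not tested.

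Rgs14, at chr13:55369732-55384687 (plus strand), carries a GoLoco motif beside its RGS domain, by which its protein also binds the GDP-bound form of Gi subunits. Its FPKM was 17.5, 15.5 and 15.5 in Ctrl and 23.5, 22.1 and 21.5 in LIP libraries, without overlap. It rose 1.71-fold (log2 fold change 0.78, SE 0.115, adjusted p = 0.000258). Rgs19, at chr2:181688419-181693977 (minus strand), encodes a regulator of Gi subunits also known as GAIP. Its FPKM was 43.2, 57.7 and 47.6 in Ctrl and 66.7, 66.4 and 61.2 in LIP libraries, so that the highest Ctrl library came close to the lowest LIP library. The rise was 1.62-fold (log2 fold change 0.69, SE 0.134, adjusted p = 0.0015).

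Rgs1, at chr1:144242296-144249242 (minus strand), encodes a brake on chemokine receptor signalling that is best known from B and T lymphocytes, and it was the one Rgs gene of the 6 without a rise. Its FPKM was 17.8, 16.6 and 18.0 in Ctrl and 11.9, 12.7 and 12.8 in LIP libraries. On that scale every LIP library was below every Ctrl library. On the TMM scale the log2 fold change was -0.18 (95% interval -0.42 to 0.06, adjusted p = 0.179). With library totals in place of TMM it was -0.51 (adjusted p = 0.00268), and adjusted p-values ranged from 6.0e-07 to 0.427 over all alternatives, with 5 of 17 past the threshold: library totals, neutrophil-gene scaling, both limma fits and the filter at a mean FPKM of at least 5. The B cell genes had a summed FPKM of 4217 to 4557 in Ctrl and 598 to 662 in LIP libraries, and the T cell genes one of 435 to 467 and 64.9 to 78.9, with none of them at 0. Their part in the values of Rgs1 was not tested.

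Rgs2, Rgs1 and Rgs18 are neighbours on chromosome 1, all on the minus strand, within 776 kb from the start of Rgs2 to the end of Rgs18. Rgs13, which lies between Rgs2 and Rgs1 and is named here for that position, had a mean FPKM of 0.631, under the minimum tested, with 0.360, 1.86 and 1.56 FPKM in the Ctrl libraries and 0 in each LIP library. The neighbours thus had log2 fold changes of 0.64, -0.18 and 1.45, and 95% intervals of 0.43 to 0.86, -0.42 to 0.06 and 1.21 to 1.69, which do not overlap.

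**Figure D2:**
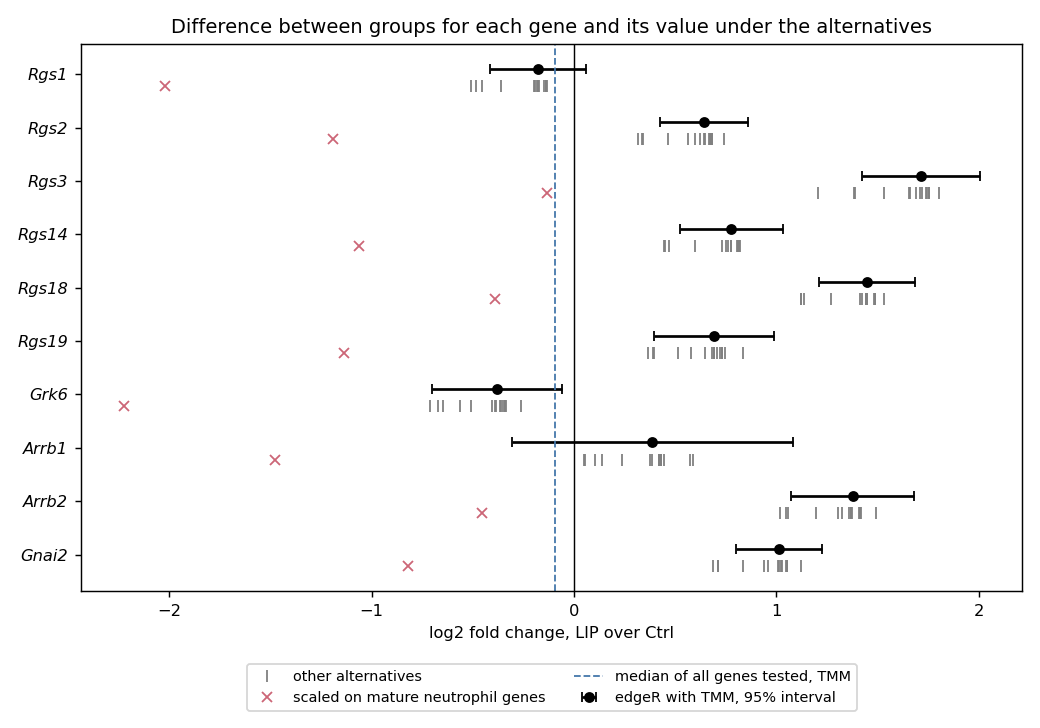
Log2 fold change (x axis, LIP over Ctrl) of the 10 genes by edgeR with TMM scaling and its 95% interval (black), under scaling on the mature neutrophil genes (red crosses) and under the other alternatives (grey ticks). The dashed line is the median of all genes tested with TMM, -0.09; the red crosses lie left of 0 for all 10 genes, and the grey ticks stay on 1 side of 0 for each gene.

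The upstream sequences of Rgs2, the most abundant Rgs gene, of Rgs3, with the largest rise, and of Grk6 are shown next. Grk6 was the 1 gene called lower with TMM, at the edge of the threshold (edgeR, adjusted p = 0.0457). A link between these sequences and the fold changes was not tested. RefSeq start sites (GRCm38.p6) were given for Rgs2, Rgs3, Rgs19 and Grk6, 4 of the 10 genes. The 250 bases before the start are printed 5′ to 3′ on the gene's own strand, with matches to the motifs searched in capitals. The Rgs2 window is chr1:144004150-144004399 (minus strand), the Rgs3 window is that of the first start site, chr4:62559597-62559846 (plus strand), and the Grk6 window is also that of the first start site, chr13:55444822-55445071 (plus strand).
Rgs2: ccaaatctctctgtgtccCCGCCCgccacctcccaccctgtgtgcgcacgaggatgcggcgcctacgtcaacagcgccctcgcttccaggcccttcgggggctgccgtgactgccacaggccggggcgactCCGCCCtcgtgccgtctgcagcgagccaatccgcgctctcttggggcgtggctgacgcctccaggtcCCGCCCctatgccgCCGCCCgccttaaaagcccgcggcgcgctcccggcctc
Rgs3: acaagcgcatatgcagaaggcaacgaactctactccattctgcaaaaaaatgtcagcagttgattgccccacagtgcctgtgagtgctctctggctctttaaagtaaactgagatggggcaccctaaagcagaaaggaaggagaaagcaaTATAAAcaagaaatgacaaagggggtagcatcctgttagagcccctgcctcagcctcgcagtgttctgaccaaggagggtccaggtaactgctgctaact
Grk6: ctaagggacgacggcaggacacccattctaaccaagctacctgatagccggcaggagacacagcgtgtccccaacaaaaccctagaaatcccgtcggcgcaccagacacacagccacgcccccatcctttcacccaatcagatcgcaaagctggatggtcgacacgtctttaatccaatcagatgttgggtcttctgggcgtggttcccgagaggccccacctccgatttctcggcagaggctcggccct
The motifs searched, on both strands, were the cAMP response element TGACGTCA, the AP-1 site TGANTCA, the ETS motif GAGGAA, the GC box GGGCGG and the TATA box TATAAA, found in 1.546%, 6.749%, 23.25%, 32.74% and 12.37% of all 32851 windows of the same length. The Rgs2 window is 72.4% G and C and holds 4 GC boxes, all read on the opposite strand as CCGCCC. The Rgs3 window is 48.4% G and C and holds 1 match to the TATA box letters, at -100 from the start. The Grk6 window is 58% G and C and holds none of the 5 motifs. The windows of other start sites differ. The 2 further Grk6 windows overlap each other and are 67.6% and 68% G and C. Each holds 4 GC boxes, as many as the Rgs2 window. The other Rgs3 window is 56.8% G and C and holds 1 ETS motif, 1 GC box and 1 TATA box match, at -177. These matches describe the letters of the windows, and start site use was not measured.

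The make-up of the Rgs transcripts was compared within each library, where scaling between libraries plays no part in the shares. The part of the lymphocyte and platelet genes in these shares was not tested. The summed FPKM of the 6 Rgs genes, which does depend on scaling, was 295, 334 and 302 in Ctrl and 428, 456 and 438 in LIP libraries. Rgs2 made up 53.6%, 56.7% and 54.7% of that sum in Ctrl and 49.5%, 49.5% and 47.7% in LIP libraries. Rgs18 made up 18.3%, 15.4% and 17.3% in Ctrl and 24.3%, 26.2% and 28.3% in LIP libraries. Both sets of shares were without overlap, with mean differences (LIP minus Ctrl) of -6.09 percentage points for Rgs2 and 9.26 for Rgs18. The share of Rgs1 went from 5.67% ± 0.592 to 2.83% ± 0.0855 (SD, n = 3) and that of Rgs3 from 1.20% ± 0.231 to 2.21% ± 0.161, also without overlap. Shares of Rgs14 (5.24% ± 0.665 and 5.09% ± 0.353) and Rgs19 (15.9% ± 1.32 and 14.7% ± 0.817) overlapped between the groups. In the exact two-sided permutation test each share without overlap had p = 0.1, the smallest that 3 libraries against 3 allow, and an adjusted p of 0.167 over the 10 ratios and shares tested, so none could pass the threshold.

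**Figure D3:**
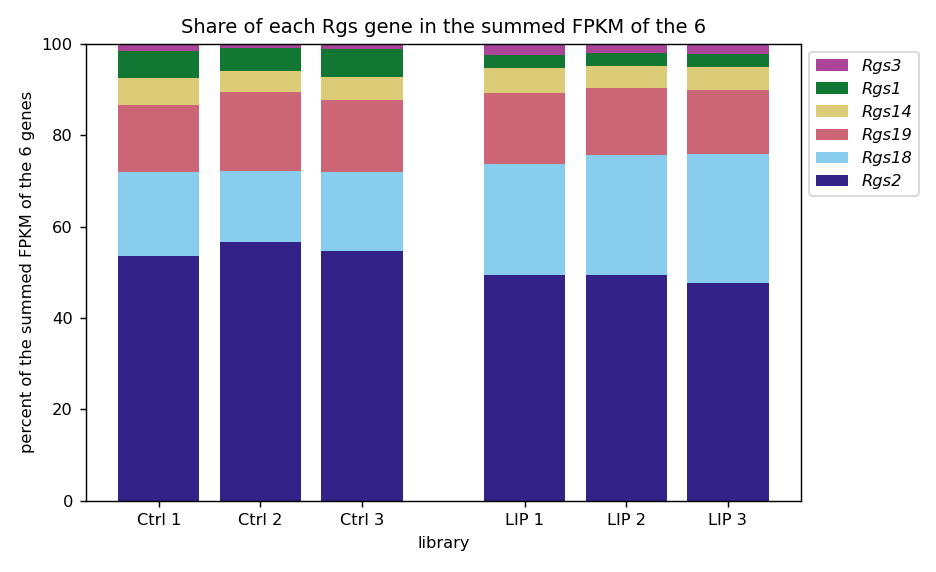
Share of each of the 6 Rgs genes (y axis, percent of their summed FPKM, bars stacked from 0 to 100) in the 3 Ctrl and the 3 LIP libraries. Rgs18 takes 15.4% to 18.3% of the sum in Ctrl and 24.3% to 28.3% in LIP libraries, and Rgs1 shrinks in each LIP library.

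Grk6, at chr13:55445072-55460927 (plus strand), encodes a receptor kinase of leukocytes that phosphorylates active chemokine receptors. It was the one gene of the 10 called lower. Its FPKM was 33.4, 26.1 and 38.7 in Ctrl and 21.3, 20.1 and 19.5 in LIP libraries, without overlap in this unit. In TMM-scaled counts, however, Ctrl 2 and LIP 1 both stood at 109 CPM, and the log2 fold change was -0.38 (SE 0.145, 95% interval -0.70 to -0.06, adjusted p = 0.0457). The call was at the edge of the threshold and was lost when any library but Ctrl 2 was left out: adjusted p was then 0.0744 without Ctrl 1, 0.177 without Ctrl 3, 0.0686 without LIP 1, 0.117 without LIP 2 and 0.139 without LIP 3, and 0.0054 without Ctrl 2. Over all alternatives the adjusted p ranged from 2.7e-06 to 0.177. The lymphocyte genes described beside Rgs1 were lower in the LIP group as well, and their part in the values of Grk6 was not tested.

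Arrb2, at chr11:70432635-70440828 (plus strand), encodes beta-arrestin 2. Its FPKM was 14.9, 16.0 and 15.4 in Ctrl and 33.2, 27.7 and 36.3 in LIP libraries. The Ctrl libraries were tightly grouped and the LIP libraries, though more spread, were all well above them. Arrb2 rose 2.60-fold (log2 fold change 1.38, SE 0.137, adjusted p = 1.5e-05).

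Arrb1, at chr7:99535466-99606771 (plus strand), encodes beta-arrestin 1 and was near the minimum level tested. Its FPKM was 1.42, 0.668 and 1.21 in Ctrl and 0.867, 1.41 and 1.21 in LIP libraries. The groups overlapped fully, and the log2 fold change was 0.39 (95% interval -0.31 to 1.08, adjusted p = 0.319), an interval that holds both no change and a doubling. Arrb2 was 14.7 times as abundant as Arrb1 per length in Ctrl and 28.3 times in LIP libraries, as geometric means. In the Ctrl libraries the log2 ratio was 3.39, 4.58 and 3.67, and in the LIP libraries 5.26, 4.30 and 4.91, which overlap, and the exact two-sided permutation test gave p = 0.2 (adjusted p = 0.25).

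Gnai2, at chr9:107614125-107635367 (minus strand), encodes the inhibitory alpha subunit that is the main partner of chemoattractant receptors in leukocytes and a substrate of the RGS proteins above. Its FPKM was 216, 261 and 221 in Ctrl and 379, 393 and 369 in LIP libraries, without overlap. It rose 2.02-fold (log2 fold change 1.01, SE 0.0959, adjusted p = 1.1e-05).

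Ratios to Gnai2 within a library put the shut-off genes beside their G protein, and the part of other cell types in them was not tested. The summed Rgs genes stood at 1.33 times Gnai2 in Ctrl and 1.16 times in LIP libraries per length, with log2 ratios of 0.45, 0.35 and 0.45 in Ctrl and 0.17, 0.21 and 0.25 in LIP libraries. Grk6 stood at 0.139 times Gnai2 in Ctrl and 0.0533 times in LIP libraries, with log2 ratios of -2.69, -3.33 and -2.51 against -4.16, -4.29 and -4.24. Neither ratio overlapped between the groups (exact permutation p = 0.1 each, adjusted p = 0.167), and both were lower in each LIP library than in any Ctrl library. The summed arrestins stood at 0.0712 and 0.0877 times Gnai2, and their log2 ratios overlapped, at -3.73, -3.97 and -3.73 in Ctrl and -3.48, -3.76 and -3.30 in LIP libraries (exact permutation p = 0.3).

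Related genes were read in the same fit, from lists written for the pathway, and their directions hold for the TMM scale. Counts with neutrophil-gene scaling are given beside them, and are to be read against the 88.6% of all genes called lower there. Of the 11 other Rgs genes listed in the table, Rgs10, another regulator of Gi subunits, was the only one with a mean FPKM of at least 1. Its FPKM was 21.8, 26.5 and 25.2 in Ctrl and 32.8, 32.0 and 32.8 in LIP libraries, without overlap. Rgs10 rose 1.64-fold on the TMM scale (log2 fold change 0.72, SE 0.138, adjusted p = 0.00144) and was lower with neutrophil-gene scaling.

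Of 8 other receptor kinase and arrestin-family genes tested, 3 rose and the other 5 did not pass on the TMM scale, while 7 were lower with neutrophil-gene scaling. Grk2, the widely expressed kinase of active receptors, went from 57.8 ± 11.6 to 74.6 ± 4.62 FPKM (SD, n = 3) with a log2 fold change of 0.68 (adjusted p = 0.00208), where Grk6 had -0.38. The arrestin-domain genes Arrdc3 and Arrdc4 rose by 1.66 and 1.40 (adjusted p = 3.2e-05 and 1.6e-05). Txnip, the most abundant of the list and a relative of the arrestins that inhibits thioredoxin, was at 206 ± 39.6 and 155 ± 9.67 FPKM (log2 fold change -0.10, adjusted p = 0.523).

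Among 8 other alpha subunit genes tested, 3 rose and 1 fell with TMM, while all 8 were lower with neutrophil-gene scaling. Gnai3, which encodes the other main Gi alpha subunit of leukocytes, rose from 44.5 ± 10.9 to 79.6 ± 7.21 FPKM (log2 fold change 1.15, adjusted p = 0.000233), close in size to Gnai2. Gnaq and Gnaz rose by 0.84 and 0.66, and Gna11, near the minimum level, fell by 1.41 (adjusted p = 0.0176). Of 8 beta and gamma subunit genes tested, 6 rose with TMM and the other 2 did not pass, and 7 were lower with neutrophil-gene scaling. The 3 largest were Gng12 (log2 fold change 1.69), Gnb2 (1.17) and Gng11 (1.17), and Gng11, a gamma subunit gene abundant in platelets, had the highest level at 176 ± 28.2 FPKM in Ctrl and 321 ± 31.0 in LIP libraries.

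The chemoattractant receptor genes had a larger median difference than the 10 genes (0.74). Of 14 tested, 11 rose and 2 fell on the TMM scale, with a median log2 fold change of 1.60, while with neutrophil-gene scaling 3 were higher and 6 lower. C5ar1, the complement C5a receptor gene and the most abundant of the list, went from 245.8 ± 6.27 to 609.9 ± 15.9 FPKM. Cxcr1, Fpr1 and Cxcr2, for chemokines and formyl peptides, rose by 2.59, 2.10 and 2.07 (edgeR, adjusted p = 7.6e-06, 3.3e-07 and 5.3e-08). S1pr1 and S1pr4, receptor genes for the lipid sphingosine 1-phosphate, fell by 2.29 and 0.56 (adjusted p = 1.9e-05 and 0.00379). The largest rise among the 10 genes, 1.71 for Rgs3, was below that of each of the 3 leading receptor genes. It was above the median of 1.60 for the 14 receptor genes tested.

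Of 9 effector genes of the beta-gamma pair and of Gi tested, 5 rose and 1 fell on the TMM scale, while 6 were lower with neutrophil-gene scaling. The 3 largest rises were in genes of phosphoinositide 3-kinase gamma, the adapters Pik3r6 (1.91) and Pik3r5 (1.32) and the catalytic subunit Pik3cg (1.20). Prex1, a Rac exchange factor and the highest of the list by the mean over all 6 libraries, though in neither group alone, went from 11.7 ± 2.99 to 20.6 ± 3.66 FPKM (log2 fold change 1.13, adjusted p = 0.000526). Adcy7, an adenylyl cyclase gene, fell by 0.84 (adjusted p = 0.000416).

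Among 8 other regulators of G proteins 2 rose and 2 fell with TMM, and all 8 were lower with neutrophil-gene scaling. Gpsm3, which like Rgs14 carries GoLoco motifs, rose from 35.8 ± 1.43 to 80.6 ± 6.94 FPKM (log2 fold change 1.48, adjusted p = 4.3e-06), and Ccdc88a rose by 0.51 (adjusted p = 0.0279). Gprasp1, which encodes a receptor sorting protein, and Pebp1 fell by 1.40 and 1.37 (adjusted p = 0.00603 and 0.00242). Of 11 genes of clathrin-mediated internalisation 5 rose and 2 fell with TMM, a median of 0.26, and all 11 were lower with neutrophil-gene scaling. Dnm2, the dynamin that pinches off coated vesicles, had the highest mean FPKM over all 6 libraries, though not in Ctrl alone, and rose by 0.89 (adjusted p = 0.000677), the adaptor gene Ap2a2 by 0.73 and the clathrin heavy chain gene Cltc by 0.69. Cltb and Bin1 fell by 1.13 and 1.06 (adjusted p = 0.00765 and 2.8e-05).

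**Figure D4:**
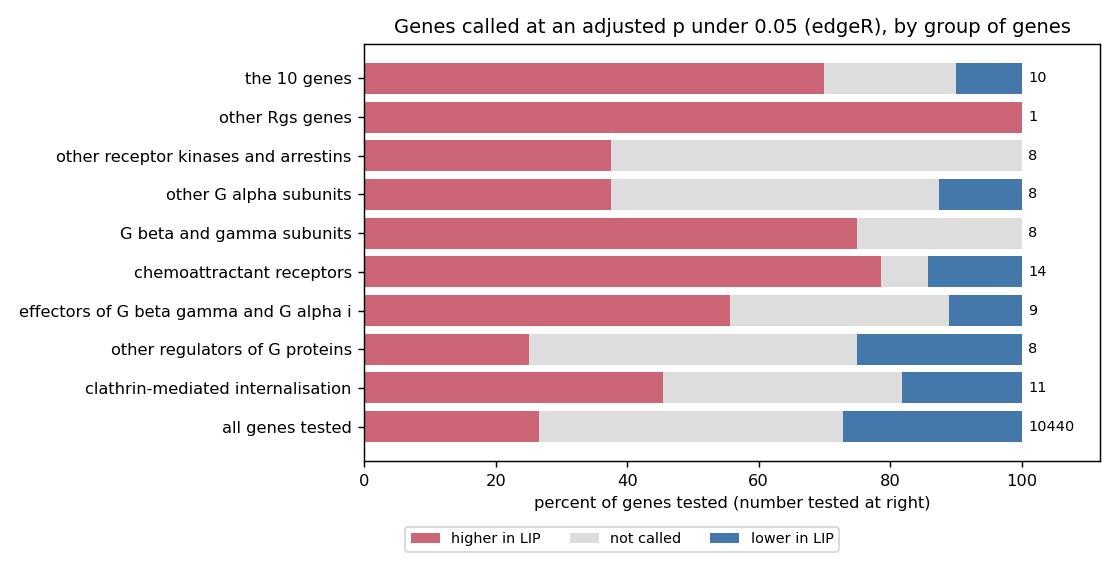
Percent of the genes tested in each group of genes (y axis) that were called higher in LIP (red), lower (blue) or not called (grey) by edgeR with TMM scaling, with the number tested at the right. The 10 genes have 7 higher and 1 lower, the receptors 11 of 14 higher and the beta and gamma subunits 6 of 8. Larger red parts than that of all genes tested (26.5%) are shared by every group but the other regulators of G proteins (2 of 8). With neutrophil-gene scaling most of the genes in the red parts change sign.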

How the data were processed

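Smart-seq2 libraries of sorted PB neutrophils, 3 Ctrl and 3 LIP, were analysed. Sample labels gave the groups and the replicate numbers. The 10 genes and the gene lists were chosen with earlier results of these data known.

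The authors deposited a table of raw counts for each gene. In the same table the authors give FPKM, scaled by them to gene length and library total. The submitters' processing notes name cutadapt 1.9, FastQC and GRCm38. The aligner, the counting tool and the use of strand are not given in the sources used here. Smart-seq2 copies cDNA by PCR and these libraries carried no molecular identifiers, so reads are not independent molecules. For 50 gene names given on more than 1 row, the most highly expressed row was kept. None of the 10 genes shares exonic bases with a gene at a mean FPKM of 1 or more.

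All genes whose mean FPKM reached 1 entered the quasi-likelihood test of edgeR 4.0.16 (R 4.3.3) on the deposited counts, with TMM scaling, no replicate block and Benjamini-Hochberg adjustment over 10440 genes. The fit was checked first on simulated counts in which few genes changed, evenly in both directions. That check could not test the scaling where as many genes differ as here. The common biological coefficient of variation was 0.265, and chi-square per gene between libraries of a group was 52.2 to 126, so no library repeated another. Ratios and shares of FPKM were compared by exact two-sided permutation tests. Alternatives were library totals, median-of-ratios factors, TMM without haemoglobin genes, scaling on the mature neutrophil genes, DESeq2 1.42.0, limma 3.58.1 on log2(FPKM + 1) and log2(FPKM + 0.1), other filters on low values, a replicate block, and omission of single libraries. P-values measure the spread between pools. Besides the 10 genes, the text names from each pathway list the gene with the highest mean FPKM over the 6 libraries and, among genes called, up to 3 with the highest and 3 with the lowest log2 fold change, and from each marker list the former alone.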

Additional observations from a re-analysis of the deposited data

How the results depend on the processing

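The count of 7 of the 10 genes called higher was the same in 16 of 17 alternatives. With scaling on mature neutrophil genes it was 0 (edgeR, also at an unadjusted p under 0.05) and 9 were called lower, where 9245 of the 10440 genes tested were lower and 52 higher. The log2 fold changes there were -1.19 for Rgs2, -0.13 for Rgs3, -1.06 for Rgs14, -0.39 for Rgs18, -1.14 for Rgs19, -1.48 for Arrb1, -0.45 for Arrb2 and -0.82 for Gnai2, all of the opposite sign to TMM. Apart from that scaling, the 7 genes were called higher in all 16, lowest with library totals or limma (0.31 for Rgs2, 0.37 for Rgs19, 1.20 for Rgs3). With library totals 1898 of all genes were higher and 4179 lower, where TMM gave 2766 and 2835, and the median moved to -0.42. The count of genes called lower, 1 (Grk6), was 2 (with Rgs1) with library totals, both limma fits and a mean FPKM of at least 5. It was 0 with median-of-ratios factors, no filter on low values, filterByExpr and the replicate block, where Grk6 had an unadjusted p under 0.05 in each (1 gene lower). It was 0 to 1 when 1 library was left out. Rgs1 was -0.46 and -0.48 in the limma fits and -0.36 at a mean FPKM of at least 5. Arrb1 was not tested at that minimum. The cause of these shifts was not tested. For the replicate block, deviations of same-numbered libraries correlated at 0.021, 0.056 and 0.036, so the numbers were not taken to pair the libraries. The replicate block gave 2724 higher and 2822 lower genes, and Grk6 had -0.37 (adjusted p = 0.0537). With counts in place of FPKM the differences in share were -5.46 points for Rgs1, -4.03 for Rgs2, 3.52 for Rgs3 and 6.20 for Rgs18, and the summed Rgs to Gnai2 log2 ratio differed by -0.27, all in the same directions; counts are not per length. The precision rests on 3 pools per group, and the effect of depth on it was not tested.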
